A study of Drosophila melanogaster with 48 samples.

Results

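Ultrabithorax (Ubx) is the Hox protein that makes the hindwing appendage of flies, the haltere, differ from the forewing. The comparison described here is of developing forewings of Drosophila melanogaster that were made to express Ubx, over the step from prepupa to pupa in separate animals. It rests on 8 of the 48 arrays of the study, 4 of pupal wings and 4 of prepupal wings of the Ubx line at 29 °C, chosen by their labels. The same step in the eGFP line at 29 °C, on another 8 arrays, shows what the wing does without Ubx. Animals of the Ubx groups had the genotype w; UAS-UbxIa / + ; nabGal4NP3537 / Tub-Gal80ts, and in the eGFP groups UAS-eGFP took the place of UAS-UbxIa. All groups shared a Gal4 driver inserted in the gene nab, which sets where the transgene is made, and the temperature-sensitive repressor Gal80, which blocks Gal4 at 19 °C and lets it act at 29 °C. Pupal wings were dissected at 16 h after puparium formation (APF) from animals moved to 29 °C as white prepupae, and prepupal wings at 6 h APF from animals moved before pupariation. Each group had thus spent 16 h at 29 °C, and each array measured a separate pool of about 15 to 20 animals. The transgene could act from before pupariation in prepupal groups, but only from the white prepupa on in pupal groups. Stage and the developmental time at which the transgene came on therefore cannot be told apart. At 19 °C, where the transgene was off, wings of both lines were taken at 33.5 h APF for pupae and 12.5 h APF for prepupae.

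Over prepupal and pupal life the wing lays down the pupal cuticle and folds out, and later forms the hairs, veins and cuticle of the adult wing. Pulses of the steroid hormone ecdysone drive the sequence through nuclear receptors and early genes such as ftz-f1, br and Eip93F. In the haltere, Ubx changes growth, vein formation and cell shape by regulating signalling genes and their targets.

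Values are log2 levels from Affymetrix arrays, rescaled so that all arrays share the same distribution. Replicate arrays of a group correlated at 0.996 or more across probe sets. Before rescaling, array medians lay between 4.40 and 4.43 for pupal Ubx, 4.71 and 4.78 for prepupal Ubx, 4.34 and 4.41 for pupal eGFP, and 4.74 and 4.77 for prepupal eGFP wings. The deposited distributions appear to have been set per stage and temperature, which no source used here states. A shift common to such a set and the stage change cannot be told apart. Where the stage changes of the lines are compared, a shift of equal size in both lines cancels. The differences between the lines still depended in part on the scaling, as given below. The wing identity gene nub, a POU-domain factor of the wing blade, averaged 10.93 on pupal Ubx arrays, 10.27 on prepupal Ubx arrays, 11.30 on pupal eGFP arrays and 10.56 on prepupal eGFP arrays. The other identity genes vg, ap and Dll were also read well above the array median in all 4 groups. Ubx itself was not analysed here.

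Most stage changes were shared by the lines. In the Ubx line 12017 of 18769 probe sets, 64%, differed between pupa and prepupa at an adjusted p under 0.05 (limma). A probe set is said to have moved where it also differed at least 1.5-fold, and 5024 (26.8%) moved, 2736 higher (14.6%) and 2288 lower (12.2%) in pupae. In the eGFP line 5138 (27.4%) moved. The 4438 that moved the same way in both lines made up 88.3% of those of the Ubx line and 86.4% of those of the eGFP line. Rescaling holds the median change near 0. On the values as deposited it was -0.23 in the Ubx line and -0.26 in the eGFP line, and 2749 probe sets of the Ubx line moved higher and 3516 lower, so the split by direction depends on the scaling.

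The genes with the largest change in the Ubx line lay near the bottom of the array range at either stage and near its top at the other. Obp56a, an odorant-binding protein gene, read 12.88, 12.95, 13.11 and 12.92 on pupal Ubx arrays, against 3.37, 3.61, 3.55 and 3.57 on prepupal Ubx arrays. It rose by 9.44 in the Ubx line and by 8.05 in the eGFP line on the log2 scale. Osi6, an Osiris family gene of cuticle-forming epithelia, read 3.72, 3.77, 3.64 and 3.77 on pupal Ubx arrays and 13.42, 13.53, 13.45 and 13.35 on prepupal Ubx arrays. Its changes were -9.71 in the Ubx line and -9.92 in the eGFP line. TwdlT, a Tweedle family cuticle gene, had changes of -9.18 in the Ubx line and -9.33 in the eGFP line. CG13023, the gene with the largest rise, had changes of 10.44 in the Ubx line and 10.39 in the eGFP line.

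**Figure D1:**
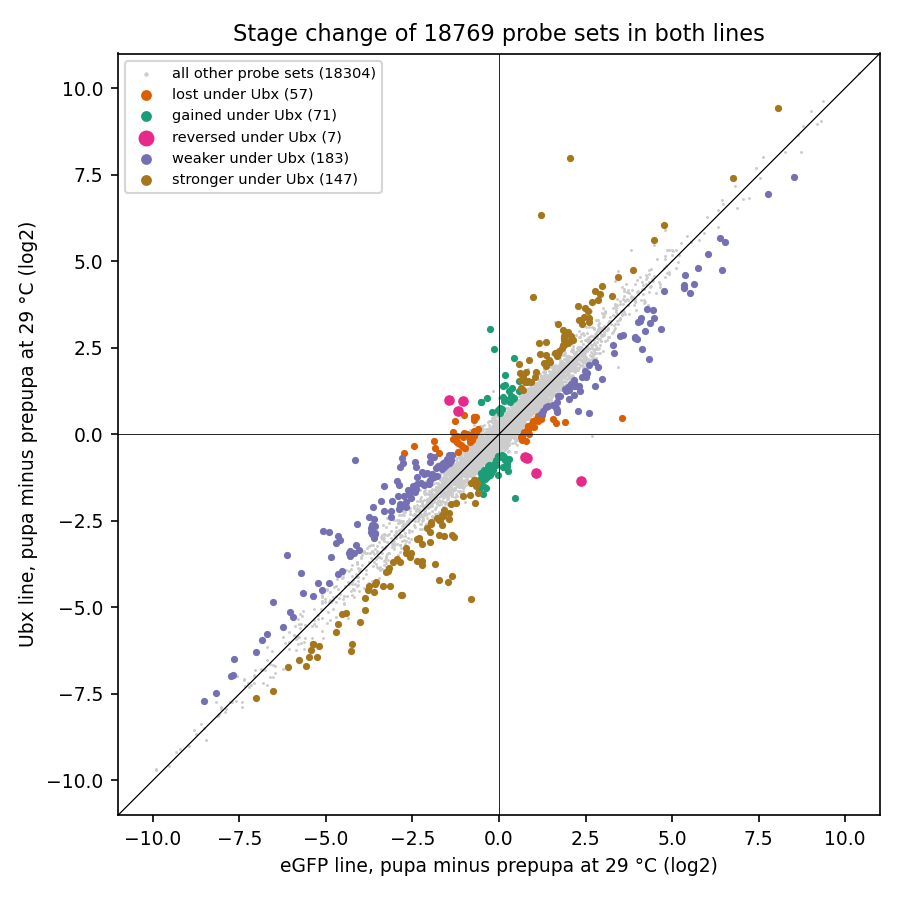
Each point is a probe set, with its stage change in the Ubx line (vertical axis, log2) against that in the eGFP line (horizontal axis, log2), and the diagonal marks equal changes. Grey points are the probe sets outside the 5 classes, and the coloured ones are the 57 lost, 71 gained, 7 reversed, 183 weaker and 147 stronger stage changes, which lie off the diagonal.

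A stage score was taken from arrays of the eGFP line at 19 °C. It is the mean level of the 603 probe sets that rose at least 4-fold from prepupa to pupa there minus that of the 631 that fell at least 4-fold, after each was centred. The score was 2.83, 2.70, 2.63 and 2.75 on pupal Ubx arrays and -2.97, -3.16, -2.98 and -2.97 on prepupal Ubx arrays. On pupal eGFP arrays it was 2.81, 2.63, 2.70 and 2.76, and on prepupal eGFP arrays -3.31, -3.20, -3.15 and -3.05. Pupal arrays of the lines overlapped, and so did prepupal arrays. The step between the stage means was 5.75 in the Ubx line and 5.90 in the eGFP line, so that the Ubx line covered 97.3% of the step of the eGFP line. Larval arrays at 29 °C averaged 1.37 in the Ubx line and 1.41 in the eGFP line, between prepupae and pupae. The score thus describes this step and is no measure of age. Of the 603 probe sets, 579 moved higher in the Ubx line and 585 in the eGFP line at 29 °C. Of the 631, 570 moved lower in the Ubx line and 586 in the eGFP line.

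**Figure D2:**
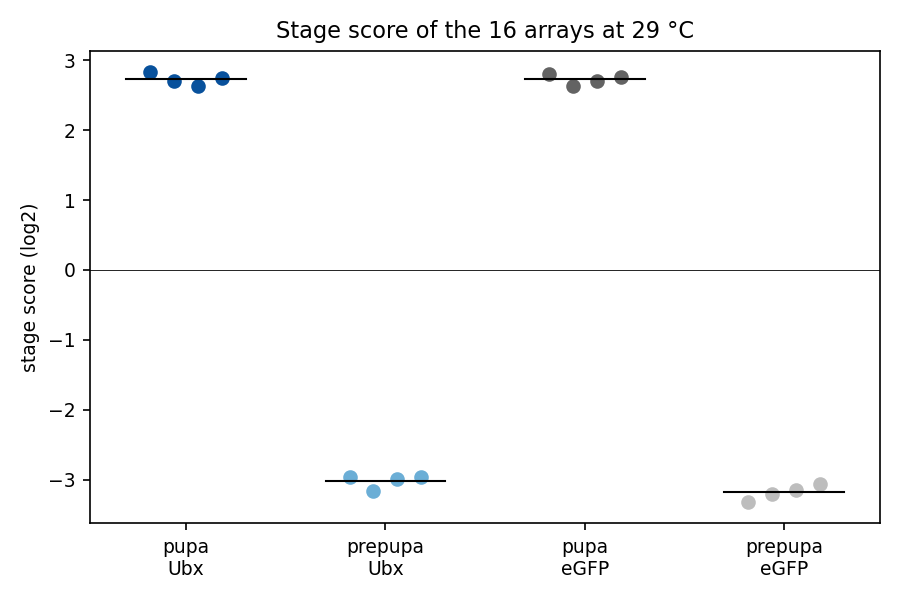
Stage score (log2) of the 16 arrays at 29 °C, with a point per array and a line at the mean of the 4 arrays of a group. Pupal arrays lie between 2.63 and 2.83 and prepupal arrays between -3.31 and -2.97, with both lines overlapping at each stage.

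Most ecdysone genes changed in both lines. Of 31 measured genes of an ecdysone response list, 12 were higher and 16 lower in pupae of the Ubx line, as in the eGFP line, against 36.2% higher and 33.2% lower in the Ubx line, and 37% and 33.6% in the eGFP line, among all 11982 genes, each read through its brightest probe set. The list's median change was -0.36 in the Ubx line, against 0.01 over all genes. The competence factor ftz-f1, named after its values were seen, read 5.14, 5.78, 5.50 and 5.60 on pupal Ubx arrays and 11.53, 11.65, 11.48 and 11.39 on prepupal Ubx arrays. It fell by 6.01 in the Ubx line and by 5.62 in the eGFP line, and the difference of -0.38 did not pass the test (adjusted p = 0.504). The early gene br, named in the same way, fell by 4.72 in the Ubx line and by 5.33 in the eGFP line. ImpE2, an ecdysone-induced gene of evaginating discs chosen likewise, had changes of 2.84 in the Ubx line and 2.80 in the eGFP line.

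Within that list the change differed between the lines for 9 genes, 4 with a higher and 5 with a lower value in the Ubx line. The same difference was called for 11.2% of all genes, 5.36% higher and 5.8% lower. Eip93F, the factor that directs the pupal-to-adult switch, read 10.35, 10.67, 10.38 and 10.26 on pupal Ubx arrays and 5.43, 4.81, 5.23 and 5.41 on prepupal Ubx arrays. On eGFP arrays it read 10.79, 11.10, 10.90 and 11.52 in pupae and 4.76, 4.92, 5.43 and 5.01 in prepupae. All pupal Ubx arrays lay below all pupal eGFP arrays, while prepupal arrays overlapped, and the difference in stage change was -0.85 ± 0.17 (SE, adjusted p = 0.00053). Another, dimmer probe set of Eip93F showed no such difference (-0.05). ImpL2, a secreted protein that binds insulin-like peptides, went the other way, with a rise of 2.80 in the Ubx line and 1.89 in the eGFP line. Edg78E, a cuticle gene induced by ecdysone, fell by 7.40 in the Ubx line and by 6.51 in the eGFP line.

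Stage changes that differed between the lines were a small part of the whole, and some of them differed at 19 °C as well. The difference between the lines in stage change was called for 1673 probe sets (8.91%), and for 500 (2.66%) it was at least 1.5-fold, 261 higher (1.39%) and 239 lower (1.27%) in the Ubx line. Of these, 57 moved in the eGFP line but not in the Ubx line and are termed lost, 23 of them rises and 34 falls. Another 71, 27 rises and 44 falls, moved in the Ubx line alone and are termed gained. Some lost or gained changes, such as the rises of rols and trn, were still called in the other line at under 1.5-fold. In another 7 probe sets the change was reversed. The change kept its direction but was smaller under Ubx in 183, termed weaker, and larger in 147, termed stronger. The line difference behind them, set at 1.5-fold, was seen in prepupae only for 205 of these 465 probe sets, in pupae only for 138, at both stages for 22, and at neither for 100. Such a line difference was found for 2.26% of all probe sets in prepupae and 1.85% in pupae.

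Among the reversed genes, daw had the largest difference. It encodes Dawdle, an Activin-like ligand of the TGF-beta family. Its levels were 7.65, 7.25, 7.11 and 7.43 on pupal Ubx arrays and 8.69, 9.20, 8.33 and 8.63 on prepupal Ubx arrays. On pupal eGFP arrays it read 7.76, 7.33, 7.33 and 7.78, and on prepupal eGFP arrays 5.30, 5.41, 4.88 and 5.11. Pupal arrays of the lines overlapped, and prepupal Ubx arrays were all far above prepupal eGFP arrays. The stage change was -1.35 in the Ubx line and 2.38 in the eGFP line, a difference of -3.73 ± 0.21 (SE, adjusted p = 1.54e-17). Before the stages compared, larvae at 29 °C averaged 6.73 in the Ubx line and 6.46 in the eGFP line.

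Sdr and Nna1 turned in the opposite sense. Sdr encodes a secreted decoy of the insulin receptor that binds insulin-like peptides. It read 8.02, 7.77, 8.17 and 8.04 on pupal Ubx arrays, above the 7.38, 6.96, 7.40 and 7.56 on prepupal Ubx arrays. In the eGFP line it read 7.23, 7.35, 7.16 and 7.03 in pupae, below the 8.01, 8.58, 8.49 and 8.44 in prepupae. Its change was 0.68 in the Ubx line and -1.19 in the eGFP line, and the lines differed by 1.86 ± 0.14 (SE, adjusted p = 4.29e-14). Nna1, a carboxypeptidase related to those that trim tubulin tails, averaged 5.58 ± 0.18 on pupal Ubx, 4.59 ± 0.04 on prepupal Ubx, 6.11 ± 0.24 on pupal eGFP and 7.54 ± 0.17 on prepupal eGFP arrays (SD). The lines differed by 2.43 ± 0.24 in its stage change (SE, adjusted p = 6.31e-10). At 19 °C the difference was -0.93 (adjusted p = 0.0546). CG3649, with a difference of 2.01, also rose in the Ubx line and fell in the eGFP line, while CG31676 (-2.19) and CG9747 (-1.39) did the reverse. The remaining reversed gene, pigs, was below the brightness required of named genes.

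Among the rises lost under Ubx were those of rols, Mad and ena. rols, an adaptor for myoblast fusion, read 8.99, 9.07, 8.90 and 8.92 on pupal Ubx arrays and 8.49, 8.46, 8.55 and 8.66 on prepupal Ubx arrays. In the eGFP line it read 9.27, 9.40, 9.34 and 9.49 in pupae and 7.86, 7.75, 7.86 and 7.79 in prepupae. Its rise of 1.56 in the eGFP line stood against 0.43 in the Ubx line, where levels were higher than in eGFP prepupae and lower than in eGFP pupae (difference -1.13 ± 0.08 SE, adjusted p = 8.97e-14). Mad, the Smad that carries the Dpp signal to the nucleus, had prepupal levels that overlapped between the lines. Its pupal Ubx arrays, at 10.08, 10.21, 10.14 and 9.97, all lay below the pupal eGFP arrays, at 10.55, 10.64, 10.68 and 10.90. The rise of Mad was 0.42 in the Ubx line and 1.08 in the eGFP line, with a difference of -0.66 ± 0.09 (SE, adjusted p = 9.13e-07). For ena, an actin-elongation factor, the change was -0.04 in the Ubx line and 0.66 in the eGFP line.

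Of the 57 lost probe sets, 6 differed between the lines in the same direction at 19 °C, with the transgene off. Those of Fbp2, CG32572 and Cyp4p1 were rises. Fbp2, a fat body protein gene, averaged 5.01 ± 0.39 on pupal Ubx, 4.53 ± 0.18 on prepupal Ubx, 9.60 ± 0.57 on pupal eGFP and 6.04 ± 0.33 on prepupal eGFP arrays (SD). Its difference in stage change was -3.08 at 29 °C and -2.66 at 19 °C (adjusted p = 0.0352). Cyp4p1, a cytochrome P450 gene, averaged 4.42 on pupal Ubx, 4.58 on prepupal Ubx, 8.77 on pupal eGFP and 8.11 on prepupal eGFP arrays. Its difference was -0.82 at 29 °C and -1.07 at 19 °C (adjusted p = 1.3e-06). CG32572 had a difference of -1.31 at 29 °C and -1.62 at 19 °C (adjusted p = 4.65e-05). The test of the 29 °C difference against the 19 °C one was not passed by any of these genes (adjusted p = 0.899 for Fbp2, 0.758 for CG32572 and 0.599 for Cyp4p1).

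Among the falls lost under Ubx, igl and mdy were lower in prepupae of the Ubx line than in prepupae of the eGFP line. igl, which encodes a calmodulin-binding protein, read 3.75, 3.68, 3.92 and 3.72 on pupal Ubx arrays and 4.03, 4.56, 3.70 and 4.13 on prepupal Ubx arrays. On eGFP arrays it read 3.88, 3.92, 4.11 and 4.11 in pupae and 6.72, 6.32, 6.52 and 6.30 in prepupae. The prepupal eGFP arrays thus stood alone, above all others, and the change was -0.34 in the Ubx line and -2.46 in the eGFP line (difference 2.12 ± 0.17 SE, adjusted p = 4.12e-13). mdy, the diacylglycerol acyltransferase that makes storage fat, read 8.30, 8.32, 8.42 and 8.43 on pupal Ubx arrays and 7.77, 7.73, 7.93 and 7.81 on prepupal Ubx arrays. In the eGFP line its pupal arrays read 8.04, 8.16, 8.20 and 8.05 and its prepupal arrays 8.83, 9.22, 9.23 and 9.26. The difference in stage change was 1.58 ± 0.14 (SE, adjusted p = 5.54e-12). The nuclear receptor gene knrl had a change of 0.51 in the Ubx line and -0.66 in the eGFP line. CG6330 differed in pupae rather than prepupae, with means of 11.42 on pupal Ubx, 11.05 on prepupal Ubx, 9.92 on pupal eGFP and 11.18 on prepupal eGFP arrays.

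Among the gained rises were those of Cpr50Cb, LanA and trn. Cpr50Cb, of the chitin-binding cuticle protein family, read 7.0, 7.60, 7.19 and 7.82 on pupal Ubx arrays, against 4.87, 4.81, 5.10 and 5.0 on prepupal Ubx arrays. All 8 eGFP arrays read between 4.75 and 5.24. Only pupal Ubx wings were high among these 16 arrays, and the difference was 2.59 ± 0.16 (SE, adjusted p = 1.24e-16). LanA, the laminin alpha chain of basement membranes, read 10.08, 9.93, 9.84 and 10.11 on pupal Ubx and 9.31, 9.28, 9.28 and 9.25 on prepupal Ubx arrays. Its change was 0.71 in the Ubx line and -0.02 in the eGFP line. trn, which encodes the cell-surface protein Tartan, rose by 1.34 in the Ubx line and by 0.37 in the eGFP line.

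Among the gained falls were those of Sb, LpR2 and bs. Sb encodes Stubble, a transmembrane protease needed for leg and wing elongation. It read 7.54, 7.66, 7.40 and 7.51 on pupal Ubx arrays and 8.52, 8.90, 8.47 and 8.42 on prepupal Ubx arrays, against 7.68, 7.79, 7.73 and 7.78 on pupal eGFP and 7.70, 7.52, 7.29 and 7.42 on prepupal eGFP arrays. Prepupal Ubx arrays were above all others (difference -1.32 ± 0.15 SE, adjusted p = 7.76e-09). LpR2, a lipophorin receptor, read 7.91, 8.29, 7.90 and 7.89 on pupal Ubx arrays and 9.89, 9.53, 9.72 and 9.75 on prepupal Ubx arrays. It fell by 1.73 in the Ubx line and by 0.46 in the eGFP line, with pupal Ubx arrays below all others.

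bs, the serum response factor that specifies intervein cells, read 8.16, 8.23, 8.17 and 8.15 on pupal Ubx arrays, against 8.89, 8.79, 8.79 and 8.76 on prepupal Ubx arrays. The eGFP line read 8.77, 8.82, 8.85 and 8.80 in pupae and 8.86, 8.71, 8.88 and 8.86 in prepupae. The fall of 0.63 in the Ubx line, against -0.01 in the eGFP line, set pupal Ubx wings apart from the other 3 groups, which overlapped (difference -0.61 ± 0.07 SE, adjusted p = 4.91e-09). kek1, an inhibitor of the EGF receptor, fell by 1.29 in the Ubx line and by 0.40 in the eGFP line (difference -0.89, adjusted p = 0.00521). For e, the gene of the enzyme Ebony that makes beta-alanyl dopamine for cuticle, the change was -0.91 in the Ubx line and 0.23 in the eGFP line. Sarm ranked first among the gained falls, with a difference of -2.29, but the 9 probe sets of this gene disagreed in sign and call, and the difference of their mean (-0.13) was not called.

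**Figure D3:**
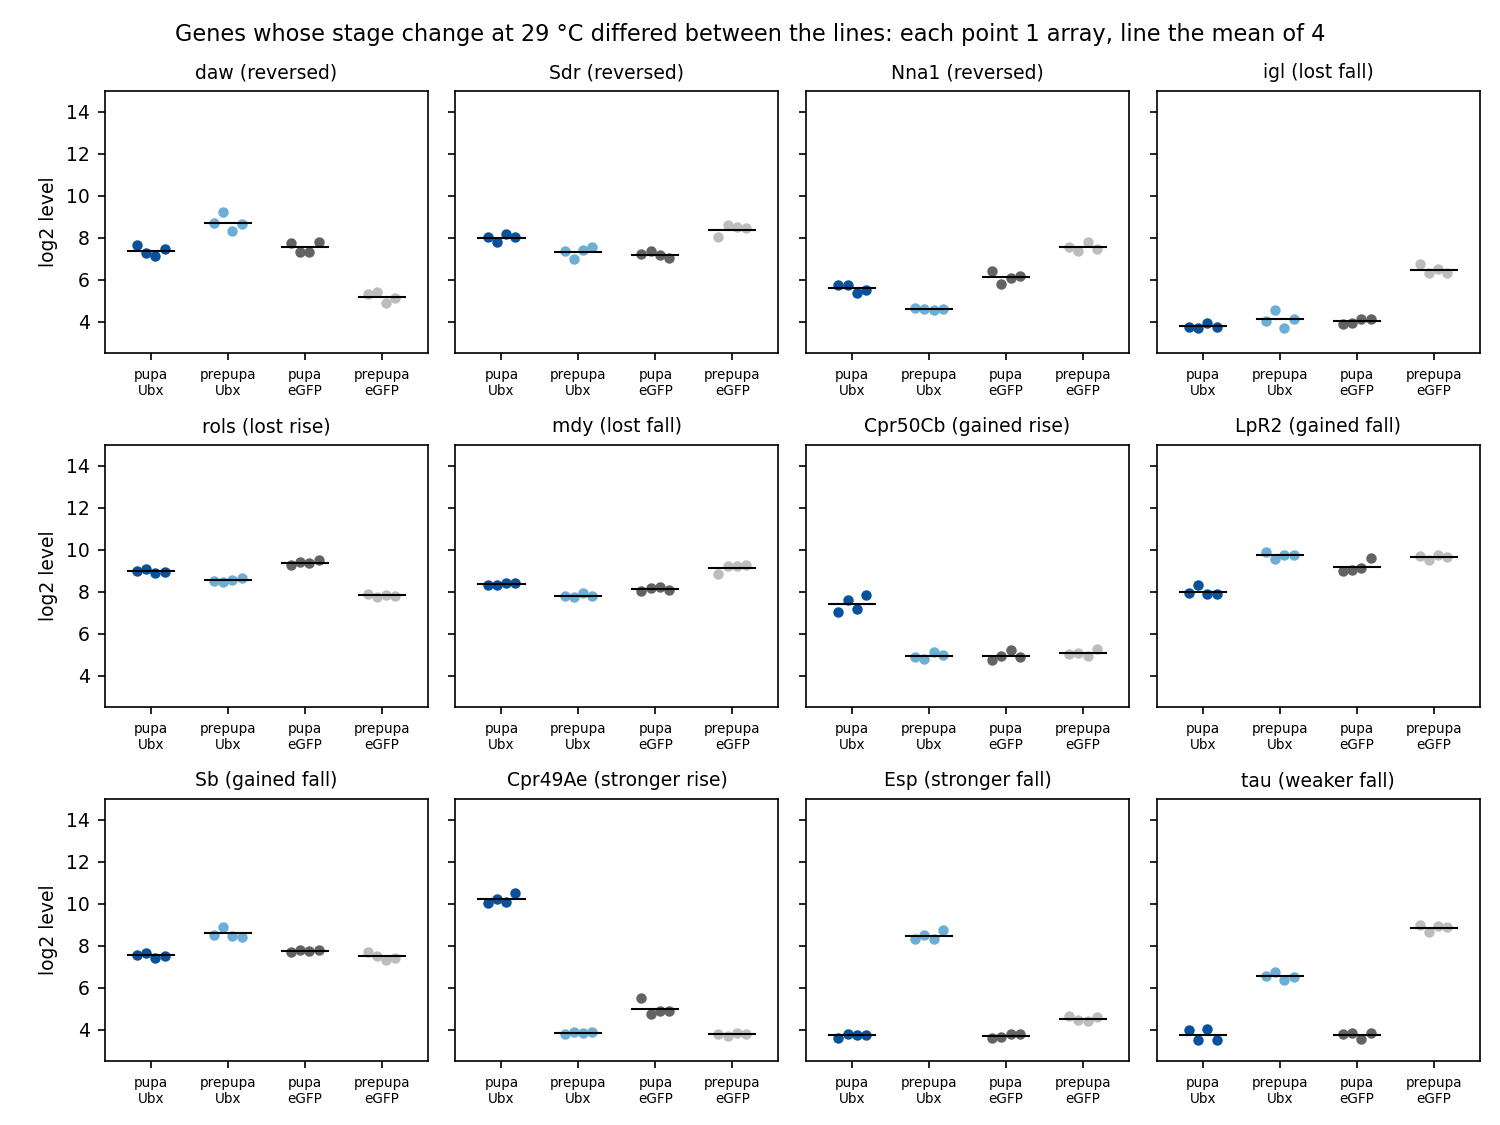
Log2 level (vertical axis) of 12 genes in pupal and prepupal wings of the Ubx line and of the eGFP line at 29 °C, with a point per array and a line at the mean of the 4 arrays of a group. daw is highest in prepupal Ubx wings (mean 8.71), Cpr50Cb in pupal Ubx wings (mean 7.40) and igl in prepupal eGFP wings (mean 6.47).

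The largest differences of all lay in changes that went the same way in both lines. Cpr49Ae, another cuticle protein gene, read 10.05, 10.23, 10.05 and 10.48 on pupal Ubx arrays and 3.79, 3.90, 3.85 and 3.89 on prepupal Ubx arrays. On eGFP arrays it read 5.50, 4.76, 4.86 and 4.86 in pupae and 3.81, 3.70, 3.86 and 3.80 in prepupae. It rose by 6.34 in the Ubx line and by 1.21 in the eGFP line, a difference of 5.14 ± 0.28 (SE, adjusted p = 8.36e-18). At 19 °C the difference was -1.10 (adjusted p = 0.0468), the opposite sign. CG4000 behaved likewise, with 11.38, 11.36, 11.96 and 11.80 on pupal Ubx and 7.21, 5.31, 5.24 and 5.28 on pupal eGFP arrays, and both prepupal groups between 3.51 and 3.79. Its difference was 5.90 ± 0.32 (SE, adjusted p = 3.2e-18), with 1 pupal eGFP array far above the other 3. js rose by 3.97 in the Ubx line and by 0.99 in the eGFP line.

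Esp, an anion transporter gene of the SLC26 family, had the largest difference between the lines among the stronger falls. It read 3.59, 3.79, 3.74 and 3.75 on pupal Ubx arrays and 8.29, 8.49, 8.32 and 8.76 on prepupal Ubx arrays. In eGFP wings it read 3.59, 3.67, 3.81 and 3.77 in pupae and 4.62, 4.47, 4.42 and 4.59 in prepupae. Only prepupal Ubx wings were high, and the difference was -3.93 ± 0.13 (SE, adjusted p = 5.01e-26). Prepupae at 19 °C averaged 4.58 in the Ubx line and 4.61 in the eGFP line.

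Among the weaker changes were those of tau, Lst, Qsox2 and nrv2. tau, a microtubule-associated protein gene, read 6.57, 6.72, 6.34 and 6.52 on prepupal Ubx and 8.99, 8.63, 8.92 and 8.86 on prepupal eGFP arrays, while pupal arrays of both lines lay between 3.49 and 4.04. It fell by 2.79 in the Ubx line and by 5.10 in the eGFP line. Lst encodes limostatin, a peptide hormone that curbs insulin release. It averaged 7.36 ± 0.13 on pupal Ubx, 10.86 ± 0.09 on prepupal Ubx, 5.29 ± 0.21 on pupal eGFP and 11.41 ± 0.15 on prepupal eGFP arrays (SD). The difference was 2.62 at 29 °C and 1.16 at 19 °C (adjusted p = 1.3e-06), and it was larger at 29 °C by 1.47 ± 0.21 (SE, adjusted p = 4.65e-06). Qsox2, a sulfhydryl oxidase that forms disulphide bonds in secreted proteins, rose by 4.76 in the Ubx line and by 6.45 in the eGFP line. nrv2, a beta subunit of the sodium-potassium pump found at septate junctions, rose by 0.68 in the Ubx line and by 2.27 in the eGFP line. Its prepupal Ubx arrays (9.37 to 9.54) were above its prepupal eGFP arrays (7.75 to 8.26), and pupal arrays of the lines overlapped. The Bcl-2 family gene Buffy rose by 2.46 in the Ubx line and by 4.14 in the eGFP line, with a difference at 19 °C as well (-1.17).

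Cuticle protein genes formed the longest list. Of 110 measured, 18 were higher and 73 lower in pupae of the Ubx line, and 14 higher and 75 lower in the eGFP line. Among all genes 36.2% were higher and 33.2% lower in the Ubx line, and 37% and 33.6% in the eGFP line. The median change of the cuticle genes was -0.57 in each line, and the median difference was 0.08, against -0.00 over all genes. The change differed between the lines for 31 cuticle genes, 22 with a higher and 9 with a lower value in the Ubx line, against 5.36% higher and 5.8% lower among all genes. Of these 31, 23 were called lower and 7 higher in pupae of the Ubx line, and the rest was called neither way. Among the 23, 16 fell in both lines and fell less under Ubx, and 7 fell in both and fell more. Another 4 rose in both lines and rose more under Ubx (Cpr49Ae, Cpr62Bc, Cpr62Bb and Cpr92F), and 2 rose in both and rose less (Cpr78E and Cpr49Ah). The difference of Cpr49Ah was also present with the transgene off, at -1.22 at 29 °C and -1.28 at 19 °C (adjusted p = 2.54e-07). Cpr50Cb was called higher in the Ubx line and not in the eGFP line. Cpr62Bc, Cpr92F and Cpr49Ah were named after their values were seen, and the mean of Cpr92F was under the array median in all 4 groups.

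Among the falls, Cpr50Ca read 3.19, 3.33, 3.26 and 3.29 on pupal Ubx arrays and 6.20, 6.36, 5.71 and 6.11 on prepupal Ubx arrays. On pupal eGFP arrays it lay between 3.20 and 3.31, and on prepupal eGFP arrays it read 8.26, 8.0, 8.17 and 8.18. The prepupal groups did not overlap, and the fall was smaller by 2.07 ± 0.12 in the Ubx line (SE, adjusted p = 2.31e-17). Cpr35B, named after its values were seen, fell by 4.64 in the Ubx line and by 2.82 in the eGFP line. Cpr72Eb, chosen in the same way, fell by 0.83 in the Ubx line and by 2.78 in the eGFP line. Cpr78E, a rising gene, read 9.43, 8.95, 9.0 and 8.98 on pupal Ubx arrays, below the pupal eGFP arrays, which lay between 10.77 and 11.

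**Figure D4:**
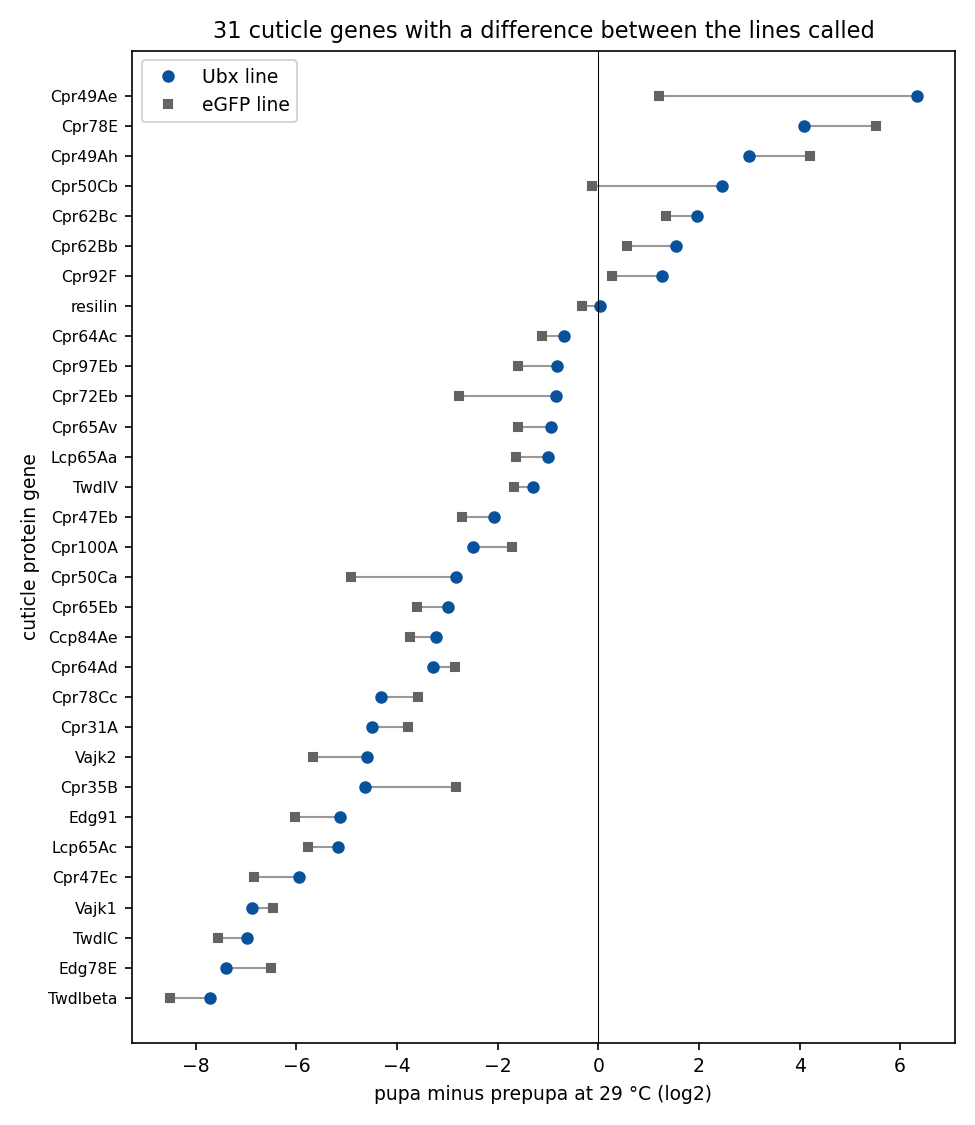
Stage change (horizontal axis, log2, pupa minus prepupa at 29 °C) of the 31 cuticle protein genes whose change differed between the lines, with circles for the Ubx line and squares for the eGFP line. Cpr49Ae has the widest gap (6.34 in the Ubx line and 1.21 in the eGFP line), and most pairs lie left of 0, where levels fell.

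Of 26 measured chitin genes, 8 were higher and 15 lower in pupae of the Ubx line, against 36.2% and 33.2% of all genes. Their median change was -1.43, and the lines differed for 10, 4 higher and 6 lower, against 11.2% of all genes. The chitin deacetylase genes serp and verm, whose enzymes modify the chitin matrix, fell further under Ubx. serp read 7.34, 7.39, 7.39 and 7.46 on pupal Ubx arrays against 8.75, 8.76, 8.54 and 8.52 on pupal eGFP arrays, while all prepupal arrays lay between 13.82 and 13.91. Its difference in stage change was -1.19 ± 0.13 (SE, adjusted p = 3.07e-09), and that of verm was -0.94. The chitinase gene Cht5, chosen after its values were seen, rose by 3.22 in the Ubx line and by 4.38 in the eGFP line.

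Of 22 measured genes of the wing hair and its actin, 15 were higher and 1 lower in pupae of the Ubx line, and 16 higher and 1 lower in the eGFP line, where 36.2% and 37% of all genes were higher. The change differed between the lines for 3 of the 22, near the 11.2% of all genes. cher, the filamin that crosslinks actin, rose by 2.57 in the Ubx line and by 3.29 in the eGFP line (difference -0.72, adjusted p = 1.37e-05). mwh and sn, which restrict and bundle hair actin and were named after their values were seen, changed by 2.30 and 1.75 in the Ubx line and by 2.28 and 1.60 in the eGFP line. Of 19 septate junction genes, 16 were higher and 2 lower in the Ubx line, and 3 differed between the lines, a share also near that of all genes. Besides nrv2 these were Nrt, an adhesion protein gene (difference -0.84), and Cont, whose difference of -0.17 lost its call when any of 3 single arrays was left out.

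Of 25 measured integrin and matrix genes, 9 were higher and 12 lower in pupae of the Ubx line, against 36.2% and 33.2% of all genes. The lines differed for 6, all with a higher value under Ubx, where 5.36% of all genes had a higher and 5.8% a lower one. Besides LanA these included Mmp2, a matrix metalloproteinase gene with a change of 0.55 in the Ubx line and -0.11 in the eGFP line, and Pax, the focal adhesion protein Paxillin, with a difference of 0.46 at 29 °C and 0.53 at 19 °C. In the cell cycle and replication list, 8 of 27 measured genes had a higher and 1 a lower stage change under Ubx, and the median difference was 0.17, against -0.00 over all genes. Mcm2, a subunit of the replicative helicase, had a change of -0.17 in the Ubx line and -0.60 in the eGFP line (difference 0.43, adjusted p = 0.00443). Those of Mcm5, Mcm3 and Cdk2 were called too, but not when arrays were centred on their medians.

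In the Dpp signalling list, 14 of 24 genes were higher and 6 lower in pupae of the Ubx line, against 36.2% and 33.2% of all genes. The change of 7 of the 24 differed between the lines, 2 higher and 5 lower, against 11.2% of all genes. Besides daw and Mad these included magu, which encodes a secreted protein that extends the range of Dpp. It rose by 0.77 in the Ubx line and by 1.64 in the eGFP line. dlp, a glypican that binds Wingless and Hedgehog, rose by 1.52 in the Ubx line and by 0.82 in the eGFP line, although its levels were lower under Ubx at both stages. In the vein and EGF receptor list bs and kek1 were the 2 of 15 genes that differed. The vein gene net, a bHLH factor of intervein cells named after its values were seen, rose by 3.77 in the Ubx line and by 3.49 in the eGFP line.

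Notch and Hedgehog genes differed for 2 of 18 and 3 of 15 genes. Growth and insulin genes differed for 6 of 22, 4 higher and 2 lower, and the 3 largest were Lst, Sdr and ImpL2, all of which act on insulin signalling outside the cell. Apoptosis genes differed for 6 of 14, 2 higher and 4 lower. The share of 11.2% over all genes gives the scale for each of these counts. Cytoplasmic ribosomal protein genes had no difference called among 41 (limma; 2 at an unadjusted p under 0.05). Mitochondrial ribosomal genes had 4 of 69 and oxidative phosphorylation genes 4 of 76, all higher, and proteasome genes 3 of 40. Heat shock genes differed for 2 of 12, Hsc70-3 by 0.60 and Hsp27 by -0.40.

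The gene nab, in which the driver is inserted and which encodes a transcriptional cofactor of wing and hinge, itself differed. It read 10.20, 10.14, 10.27 and 10.46 on pupal Ubx arrays and 7.85, 7.83, 7.98 and 8.0 on prepupal Ubx arrays. In the eGFP line it read 9.33, 9.30, 9.37 and 9.15 in pupae and 6.01, 5.95, 5.97 and 5.89 in prepupae. nab was thus higher in the Ubx line at both stages at 29 °C and rose by 2.35 in the Ubx line and by 3.33 in the eGFP line (difference -0.98 ± 0.10 SE, adjusted p = 1.62e-09). At 19 °C the difference was 0.04. A dimmer probe set of nab had a difference of 0.39 (adjusted p = 0.326), and the mean of both was not called. Antp, the Hox gene of the thorax segment that bears the wing, was lower under Ubx at both stages, at 6.20 on pupal Ubx, 4.68 on prepupal Ubx, 7.07 on pupal eGFP and 6.13 on prepupal eGFP arrays. Its difference of 0.59 was not called with arrays centred on their medians, and its other probe sets did not show it.

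The dissected wing also holds other cell types, and in such bulk RNA fewer cells of a type and less RNA per cell cannot be told apart. Fat body and storage protein markers summed to 12886 to 23705 in linear intensity on pupal Ubx arrays, 719 to 1329 on prepupal Ubx, 12554 to 21028 on pupal eGFP and 615 to 960 on prepupal eGFP arrays. Such a sum follows its brightest members. Of the 10 measured, 2 stayed under the array median in all 4 groups. In pupae of the Ubx line 6 were higher and 2 lower, against 36.2% and 33.2% of all genes, with a median change of 1.17. In the eGFP line 7 were higher and 2 lower, against 37% and 33.6%, with a median change of 2.36. Taken gene by gene, the median difference between the lines was -0.06, against -0.00 over all genes. The storage protein gene Lsp2, named after its values were seen, rose by 5.62 in the Ubx line and by 5.78 in the eGFP line, and apolpp, the lipophorin gene, by 4.87 in the Ubx line and 4.82 in the eGFP line. Fbp2 alone of the 10 differed between the lines. The part of fat body tissue in the stage changes was not tested.

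Tracheal markers summed to 6927 to 7189 on pupal Ubx, 93136 to 98256 on prepupal Ubx, 7905 to 8510 on pupal eGFP and 89900 to 98425 on prepupal eGFP arrays. Most of the list, 24 of 37, were Osiris genes, which wing epithelium also expresses. Of these, 17 were lower and 1 higher in pupae of the Ubx line, against 33.2% lower and 36.2% higher among all genes. The lines differed for 10 of the Osiris genes, 7 lower and 3 higher, against 5.8% lower and 5.36% higher among all genes. For 4 of the 7 the difference was lower at 19 °C too, where 0.526% of all genes were called lower. Of the 37 markers 10 were under the array median in all 4 groups. Osi5, of the 3 with a higher difference, fell by 4.30 in the Ubx line and by 5.23 in the eGFP line. Osi19, of the 7 with a lower one and named after its values were seen, fell by 7.62 and 7.01. The difference of Osi19 at 19 °C was -0.78.

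Muscle markers summed to 6631 to 7365 on pupal Ubx, 6541 to 6751 on prepupal Ubx, 6600 to 7004 on pupal eGFP and 6528 to 6751 on prepupal eGFP arrays, with 7 of 22 under the array median throughout. The lines differed for 8 of the 22, 4 higher and 4 lower, against 5.36% higher and 5.8% lower among all genes. Of the 4 lower, Mlc2, a myosin light chain gene, rose by 3.37 in the Ubx line and by 4.48 in the eGFP line. Another, sns, an adhesion protein of fusing myoblasts, fell by 2.63 in the Ubx line and by 1.65 in the eGFP line. Of the 4 higher, bt fell by 1.94 in the Ubx line and by 3.10 in the eGFP line. Also higher, sls, named after its values were seen, rose by 2.94 in the Ubx line and by 1.99 in the eGFP line. The difference of sls was 0.95 at 29 °C and 0.94 at 19 °C. Neuron and glia markers summed to 3763 to 3959 on pupal Ubx, 2906 to 3121 on prepupal Ubx, 3683 to 3913 on pupal eGFP and 3068 to 3258 on prepupal eGFP arrays, with no difference called between the lines among 21 (limma, adjusted p under 0.05), and 4 at an unadjusted p under 0.05. Haemocyte markers summed to 5764 to 6243 on pupal Ubx, 5928 to 6385 on prepupal Ubx, 5238 to 5882 on pupal eGFP and 5148 to 5488 on prepupal eGFP arrays, and Pvr alone of 16 differed (-0.52).

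With the transgene off, few of these differences were called, and a difference that was not called may still be present. At 19 °C the difference between the lines in stage change was called for 155 probe sets (0.826%), and for 91 (0.485%) it was at least 1.5-fold. Of the 465 probe sets in the 5 classes, 33 were called in the same direction at 19 °C and 5 in the opposite one. The 29 °C difference exceeded the 19 °C difference in the same direction for 295 of the 465, where this test was called for 759 of all probe sets (4.04%). By class these were 32 of 57 lost, 56 of 71 gained, 7 of 7 reversed, 99 of 183 weaker and 101 of 147 stronger. These counts were read on probe sets chosen by their difference at 29 °C, which also enters the test. For the rest of the 465, the test did not show a larger difference at 29 °C than at 19 °C.

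Changes over the same step in eGFP wings at 19 °C, from arrays that chose no class, are given as a further control. Of the 57 changes lost under Ubx, 31 moved the same way in the eGFP line at 19 °C, 3 the opposite way and 23 did not move. Of 183 weaker changes 170 moved the same way there, as did 111 of 147 stronger ones. Of the 71 gained under Ubx, 19 moved in the eGFP line at 19 °C in the direction of the Ubx line, 43 did not move and the others moved the opposite way. Among all probe sets 30.3% moved in that step, in either direction. Lost, weaker and stronger changes were chosen for having moved in the eGFP line at 29 °C, so that share is no baseline for them. Of the 3641 probe sets that moved the same way in both lines with no difference called, 2797 moved that way in eGFP wings at 19 °C. Sb and trn are among those whose control change at 19 °C had the direction of the Ubx line at 29 °C, with -1.10 and 1.11.

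**Figure D5:**
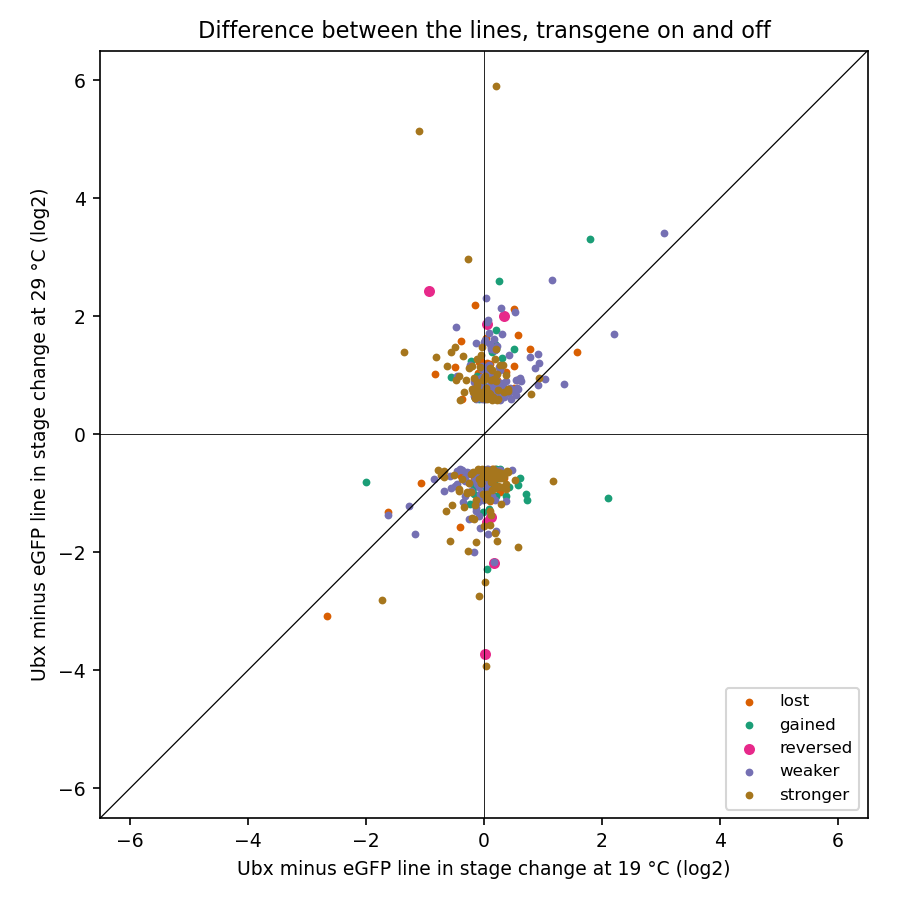
Difference between the lines in stage change at 29 °C (vertical axis, log2) against that at 19 °C (horizontal axis, log2) for the 465 probe sets of the 5 classes, with the diagonal at equal differences. Most points lie near 0 on the horizontal axis; CG4000 (5.90 and 0.21) and daw (-3.73 and 0.01) are examples, and Fbp2 (-3.08 and -2.66) lies near the diagonal.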

How the data were processed

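RNA of 48 samples was measured on Affymetrix Drosophila Genome 2.0 arrays. The authors deposited log2 values from RMA, as named per the submitters' processing notes. No RMA version is given in the sources used here, and the log base was taken from their range, 2.37 to 14.6. The deposited distributions appear to have been set per stage and temperature, so all arrays were quantile-rescaled together. After removal of 183 array controls from 18952 probe sets, 18769 were tested: 13647 carried 1 gene symbol, 402 several and 4720 none, for 11982 genes, of which 1094 had several probe sets. A gene was read through its brightest probe set.

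A mean per group was fitted to all arrays with limma 3.58.1 in R 4.3.3 (36 residual degrees of freedom, with 5.04 more from the prior). All p-values are two-sided, with Benjamini-Hochberg adjustment over all probe sets. Replicates are biological per the labels, and 4 arrays per group limit the precision. Moved means an adjusted p under 0.05 and at least 1.5-fold. The members, the 29 gene lists (861 distinct genes measured, some in several lists) and the classes were chosen with earlier results of these data known.

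Genes were named by rule where a group mean was at least 1 log2 unit above the array median, and those named after their values were seen did not have to meet this. The rule took nab and Antp, the 5 largest rises and falls in the Ubx line, up to 6 genes per direction of the lost, gained and reversed classes, 3 per direction of the weaker and stronger ones, and up to 4 differing members of each list. Some known only by a CG number are not reported here. Alternatives were the deposited values, median centring, 16 arrays at 29 °C alone, a filter on dim probe sets, the replicate number as a block, an intensity trend, averaging the probe sets of each gene, a 2-fold minimum and leaving out each array in turn. The procedure was tested on simulated data. Tables used pandas 2.3.3 and numpy 2.4.6 under Python 3.11.15, and plots matplotlib 3.10.9.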

Additional observations from a re-analysis of the deposited data

Results flagged for a closer look

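In 216 groups of 4 arrays, 54 genes with 4 groups each, 13 held an array whose gap to the nearest was most of the group's range, where chance alone marks about 1 in 20 groups. That rate does not hold where the other 3 arrays are tied, as for CG12164, TwdlT and pupal Ubx CG13023, whose gaps were small. The array that bears on a result most is the pupal eGFP array of CG4000 at 7.21, with the nearest at 5.31. The same array held the outlying value of Cpr49Ae, 5.50, with the nearest at 4.86. Prepupal eGFP arrays held the outlying lowest values of mdy (8.83), CG3649 (7.35), CG16820 (10.59) and CG12164 (13.99) and the highest of TwdlT (14.13) and CG13023 (4.02). A pupal Ubx array was the highest for LpR2 (8.29) and CG13023 (14.09), prepupal Ubx arrays for CG9083 (13.96) and TwdlT (14.09), and a pupal eGFP array was the lowest for tau (3.56).

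For 33 of the 42 class genes tested, the difference between the lines in stage change itself differed between 29 °C and 19 °C (limma interaction, adjusted p under 0.05 over all probe sets, 4 arrays per group). These genes were chosen by their difference at 29 °C, which enters this test, so the count is largely set by the choice, and 4.04% of all probe sets were called. The 29 °C minus 19 °C values among reversed genes were -3.74 for daw, 3.36 for Nna1, 1.82 for Sdr, 1.66 for CG3649, -2.36 for CG31676 and -1.52 for CG9747. Among lost changes they were -1.24 for rols, -1.15 for CG6675, 2.33 for CG13033, 1.62 for igl, 1.59 for CG6330 and 1.98 for mdy. Gained rises gave 2.33 for Cpr50Cb, 1.35 for CG11905, 0.99 for CG10019, 1.46 for CG14118, 1.53 for Cpr62Bb and 0.80 for trn. Gained falls gave -2.34 for Sarm, -1.29 for Sb, -1.35 for LpR2, -0.94 for CG9372 and -1.07 for corn. Weaker changes gave -2.33 for CG32512, -1.76 for Qsox2, 1.47 for Lst and 2.28 for tau. Stronger changes gave 5.69 for CG4000, 6.23 for Cpr49Ae, 3.24 for js, -3.96 for Esp, -1.08 for CG16820 and -2.66 for CG13833.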

How the results depend on the processing

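A 2-fold in place of the 1.5-fold minimum left 31 lost, 22 gained, 2 reversed, 47 weaker and 41 stronger stage changes, and scoring by probe sets that changed 2-fold gave a step of 3.45 in the Ubx line and 3.59 in the eGFP line. Leaving out each array in turn gave 11533 to 12040 called stage changes in the Ubx line, 1364 to 1884 differences between the lines, 53 to 83 lost, 56 to 82 gained, 6 to 9 reversed, 179 to 195 weaker and 131 to 163 stronger. In all 16 such fits 35 of the 57 lost, 42 of the 71 gained, 5 of the 7 reversed, 135 of the 183 weaker and 98 of the 147 stronger probe sets kept their class. Scaling mattered most for direction. On the deposited values 4872 stage changes of the Ubx line were called higher and 10706 lower, against 6002 and 6015, and median centring gave 8107 and 4700. Median centring also turned the split of differences between the lines to 521 higher and 1571 lower, against 790 and 883. Of the 57 lost and 71 gained probe sets, 36 and 47 kept their class on the deposited values, and 28 and 31 with median centring. Replicate numbers were not taken to pair samples, since deviations of same-numbered pupal and prepupal arrays correlated at -0.01 to 0.09 in the Ubx line (best with their own number for 3 of 4) and -0.03 to 0.04 in the eGFP line (0 of 4). The replicate block gave 12050 stage changes in the Ubx line, 1688 differences, 57 lost, 70 gained, 7 reversed, 185 weaker and 148 stronger, and among named genes mRpL13 alone lost its call. Of 3059 recomputed differences of the 133 named genes, 2932 kept direction and side of the threshold, 124 fell below it, 3 passed it and 0 reversed. The cause of these shifts was not tested. No detection calls were used, so values near the array medians may not be above background.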

Other observations

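Metallothioneins, small metal-binding proteins, were picked out after their values were seen. Of 4 measured, 3 fell between prepupa and pupa in the Ubx line, and all 3 differed between the lines with a smaller fall under Ubx. Among all genes 33.2% were lower in pupae of the Ubx line and 5.36% had a higher stage change there than in the eGFP line. MtnB read 4.01, 3.90, 4.33 and 4.02 on pupal Ubx arrays and 6.85, 6.46, 6.62 and 6.84 on prepupal Ubx arrays. Its eGFP arrays read 3.95, 4.01, 3.96 and 4.01 in pupae and 7.79, 7.34, 7.63 and 7.78 in prepupae. Prepupal Ubx arrays were all below prepupal eGFP arrays (difference in stage change 1.03 ± 0.13 SE, adjusted p = 1.93e-07), and at 19 °C the difference was 0.08. MtnD had a difference of 0.91 (adjusted p = 0.000502) with the same order. MtnA had one of 1.54 (adjusted p = 0.00463), with a pupal Ubx array at 9.65 while the other 3 lay between 7.04 and 7.39. MtnC, under the array median in all 4 groups, had a change of 0.11 in the Ubx line that did not pass the test. Genes of the GstD group of glutathione transferases, picked in the same way, rose in 8 of 11 cases in the Ubx line, and 5 had a higher stage change there than in the eGFP line, against 36.2% and 5.36% of all genes.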
